A study of Mus musculus with 18 samples.

Results

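The cytosolic ribosomal protein genes are the genes that encode the protein part of the cell's main ribosomes. They were chosen by name alone, as names that begin with Rpl or Rps and go on with a number, with p and a digit, or with a, so that the S6 kinases and names ending in -ps stayed out. The rule found 83 of the 19736 gene names in the count table, with 32 small subunit genes and 51 large subunit genes. The large subunit genes include the 3 genes of the P-stalk (Rplp0, Rplp1 and Rplp2), and 7 of the 83 have names of the paralog kind (Rpl22l1, Rpl36al, Rpl39l, Rpl3l, Rpl7l1, Rps27l and Rps4l). They held 34150 positions and 120623 counts, and 113110 of these counts lay at positions not marked as mispriming. Of the 83 genes, 82 had an unmarked count, 77 had one in every library, and 75 passed the minimum of 90 counts summed over the libraries that testing required.

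The counts come from ribose oxidation sequencing (RibOxi-seq), in which RNA is fragmented, fragments whose last nucleotide lacks a methyl group on the ribose are removed by oxidation and elimination, and the 3′ end of each remaining fragment is recorded as a count at 1 position. The cells were 4T1, a mouse mammary carcinoma line, carrying lentiviral mCherry and Renilla luciferase and selected with puromycin. The 3 genotypes were 4T1 WT and the clones Snord67KO-1 and Snord67KO-2, in which Snord67, a box C/D small nucleolar RNA (snoRNA), was deleted with pairs of CRISPR/Cas9 constructs. Each knockout line grew from 1 cell, so an effect of the deletion and a property of the clone cannot be told apart within either line. Poly(A) RNA of 3 biologic replicates per genotype was used, and the 9 oxidized libraries were analysed, while the 9 control samples were not analysed here.

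Ribosomal proteins are made in near-equal amounts, because each ribosome carries most of them as a single copy. Their mRNAs are abundant and short, and many begin with a run of pyrimidines, the TOP motif, through which mTOR signalling and Larp1 set their translation. Many ribosomal protein genes also carry snoRNAs in their introns, and box C/D snoRNAs guide 2′-O-methylation of other RNAs. Counts of a gene follow the amount of its mRNA and its protected 3′ ends together, so fewer mRNAs and fewer protected ends per mRNA cannot be told apart in a gene total, nor can fewer cells and less RNA per cell. What sets the biologic replicates of a genotype apart is not given in the sources used here, and p-values measure the spread between these samples, which may be technical. All comparisons with WT share the same 3 WT libraries.

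Library totals ran from 212463 to 737219 counts, and 0 counts in a library allows up to 3 counts, which is 4.07 to 14.1 counts per 1000000 counts of the library (CPM). These limits cover counting error only. Rn45s, the rRNA precursor gene, took 19.3% to 32.4% of a library, and marked positions took 1.38% to 17.8%, highest in WT replicate 2. A single count lay inside Snord67, and none was in WT, so its loss was not detectable at this depth. Summed CPM of the 9 epithelial markers ran from 449.5 to 1006, with 928 or more in each Snord67KO-1 library, 767 or more in each Snord67KO-2 library and at most 692 in WT, and the part of this in the gene results was not tested. The markers did not move together. Of the 7 tested by edgeR, 1 was higher (Krt8) and 3 were lower (Epcam, Cdh1 and Cldn4) in Snord67KO-1, 2 were higher (Krt8 and Epcam) and 0 lower in Snord67KO-2, and 1 was higher (Krt8) and 2 were lower (Cdh1 and Cldn4) for the average of both clones. The 6 fibroblast markers in the table stayed at or under 26.7 CPM summed, the 6 immune markers at or under 43.1 and the 3 endothelial markers at or under 29.7.

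The 83 genes together took 22360 ± 2629 CPM (SD, n = 3) in WT. Snord67KO-1 had 25106 ± 1442 CPM, and Snord67KO-2 had 21329 ± 2951. The WT libraries had 22472, 24932 and 19677 CPM, the Snord67KO-1 libraries 23562, 26419 and 25336, and the Snord67KO-2 libraries 18375, 21335 and 24277. The groups overlapped, and the log2 difference from WT was 0.17 in Snord67KO-1 and -0.07 in Snord67KO-2. When the highest position of each gene was left out, the 3 Snord67KO-1 libraries had 20223, 21157 and 24159 CPM and lay above the 3 WT libraries, at 19472, 15758 and 17713. When each position was counted at most once per library, the order of the groups changed, and Snord67KO-2 was highest with 54422 ± 2370 CPM against 48461 ± 4254 in WT and 44072 ± 6527 in Snord67KO-1. Its log2 difference from WT was then 0.17, while that of Snord67KO-1 was -0.14.

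**Figure D1:**
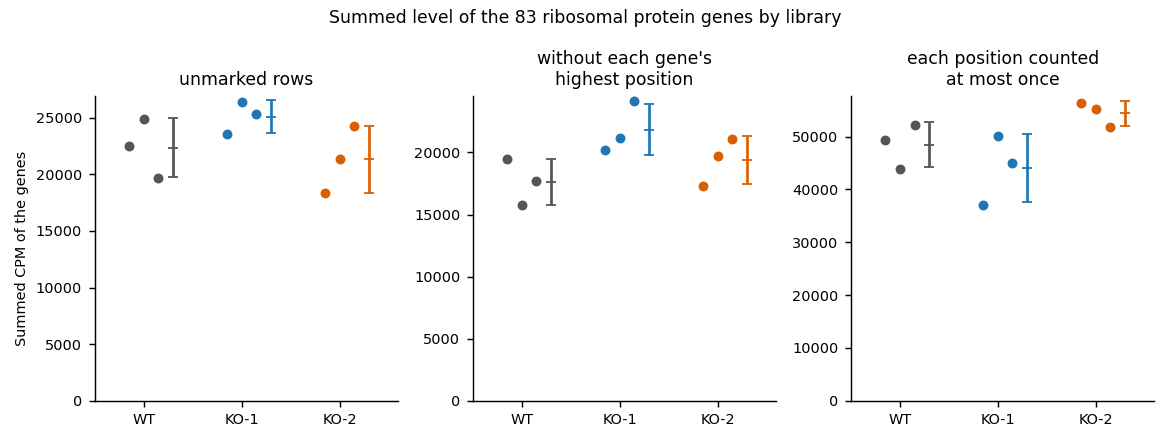
Summed CPM of the 83 ribosomal protein genes in each library (points), with the mean and SD of the 3 libraries of a group beside them, for all unmarked positions, without the highest position of each gene, and with each position counted at most once per library. The group means run from 21329 to 25106 CPM in the first panel. Snord67KO-2, whose libraries had the lowest totals, is highest only in the last of the 3 panels, which is scaled to the capped counts.

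Of the unmarked counts in these genes, 83.5% lay in coding sequence, 12.04% in 3′ UTRs, 2.42% in 5′ UTRs and 0.44% in introns outside snoRNAs. Levels were therefore compared between genes by counts in the coding sequence per kb of coding sequence. The 75 tested genes had a median of 421 coding CPM per kb, and Rpl7l1 was lowest. Rps4x lay at 1402 and Rpl41 at 1175. Ribosomal proteins of both subunits were mixed along this order, and the paralogs Rpl36al, Rpl22l1, Rps27l and Rpl7l1 lay at 160, 111, 84.8 and 20.9 coding CPM per kb. A few genes that belong to every ribosome had almost no counts. Rpl30 had 0 unmarked counts in all libraries, Rpl26 had 1, Rps21 had 4, Rps12 had 60 and Rpl29 had 68. Low counts were also found for the paralogs Rpl39l (4), Rpl3l (5) and Rps4l (11). How multi-mapped reads were counted is not given in the sources used here, so that values of genes with near-identical copies elsewhere in the genome are uncertain.

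**Figure D2:**
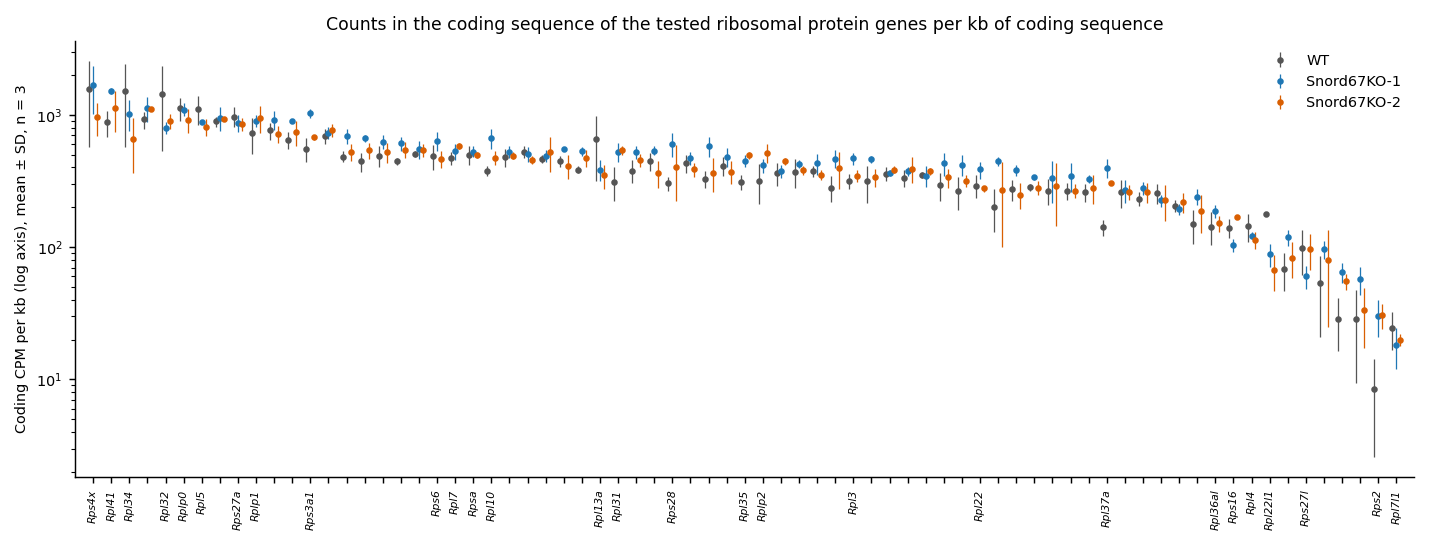
CPM in the coding sequence per kb of coding sequence (log axis) for 73 tested genes, ordered by the mean over all libraries, with names for those described in the text. Points are group means and bars are SD over 3 libraries. Most genes lie within a narrow band around the median of 421, Rps4x and Rpl34 have wide bars, and Rpl7l1 is lowest.

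By summed CPM of the whole gene, Rplp0, Rps4x, Rpl5, Rps3a1, Rpsa, Rps27a, Rpl3, Rps6 and Rpl7 were among the 10 highest genes. The totals of a few ribosomal protein genes, not all of them among these 10, rested in large part on single positions. In Rps4x, an X-linked small subunit gene, 1 position in the coding sequence held 3296 of 6065 counts (54.3%). The share was 44.8% in Rpl34, 34.6% in Rpl32 and 29.1% in Rpl13a, 3 large subunit genes. In contrast, 35.7% of the 28238 unmarked positions with a count had a single count in all libraries together.

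The mRNA sequence around 7 unmarked positions with high counts is shown because of what follows them. Each line gives 15 bases in lower case that end at the counted 3′ end, and then the next 10 bases of the mRNA in capitals. The sequences are from GENCODE M21 transcripts on GRCm38, and each position lies in coding sequence.
Rps4x at mRNA base 482, chrX:102186530-102186554, minus strand: aagtgagaaagatctTTGTAGGCAC
Rpl34 at mRNA base 544, chr3:130726901-130726925, minus strand: atcgttgtgaaagtcTTGAAGGCAC
Rps3a1 at mRNA base 599, chr3:86139127-86139151, minus strand: gaaagacatcctatgCGCAGCACCA
Rplp0 at mRNA base 564, chr5:115561209-115561233, plus strand: caccacgaaaatctcCAGAGGCACC
Rpl32 at mRNA base 114, chr6:115807829-115807853, minus strand: gaggaccaagaagttCATCAGGCAC
Rpl13a at mRNA base 157, chr7:45127243-45127267, minus strand: ggtggtggtcgtacgCTGTGAAGGC
Rplp0 at mRNA base 563, chr5:115561208-115561232, plus strand: tcaccacgaaaatctCCAGAGGCAC

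The letters GCAC, read on the mRNA strand, occurred in the capitals of 6 of these 7 positions. They occurred in the 10 bases after 2.77% of the 761886 unmarked positions with a count whose next bases could be read from a transcript, and after 25.6% of the 39 such ribosomal protein positions with at least 50 counts. These 39 include the 7 positions. The Rplp0 positions at mRNA bases 563 and 564 are neighbours and share the same GCAC. The letters GCAC were not part of the rules set for the analysis, so the 6 of 7 describes these sequences and is no test. Marked positions of the whole table were followed most often by C (98.5%), T (89.8%), G (88.0%), T (61.1%), A (64.8%) and G (70.0%), in this order. At least 4 of these 6 bases followed 3 of these 7 positions, 38.5% of the ribosomal protein positions with at least 50 counts, 2.68% of those with 1 to 9 counts and 4.58% of all unmarked positions. These matches describe the sequence only, and their part in the counts was not tested.

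The Rps4x position had 696, 1802 and 222 CPM in WT, 772, 1273 and 100.5 in Snord67KO-1, and 113, 176 and 447 in Snord67KO-2. Replicates of 1 genotype thus differed by several fold, and WT replicate 2 was highest. The same library was highest at the positions of Rpl34 (725 CPM), Rpl32 (737) and Rpl13a (446), and at both positions of Rplp0 (535 and 169). It also had the highest share of ribosomal protein counts at marked positions, 16.9% against 1.55% to 6.87% in the other libraries. The 7 positions together took 18.6% of the unmarked ribosomal protein counts in WT replicate 2 and 1.49% in Snord67KO-1 replicate 3. The position of Rps3a1 had another order, with 48.8, 222 and 65.6 CPM in WT, 190, 256 and 182 in Snord67KO-1, and 226, 176 and 132 in Snord67KO-2.

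**Figure D3:**
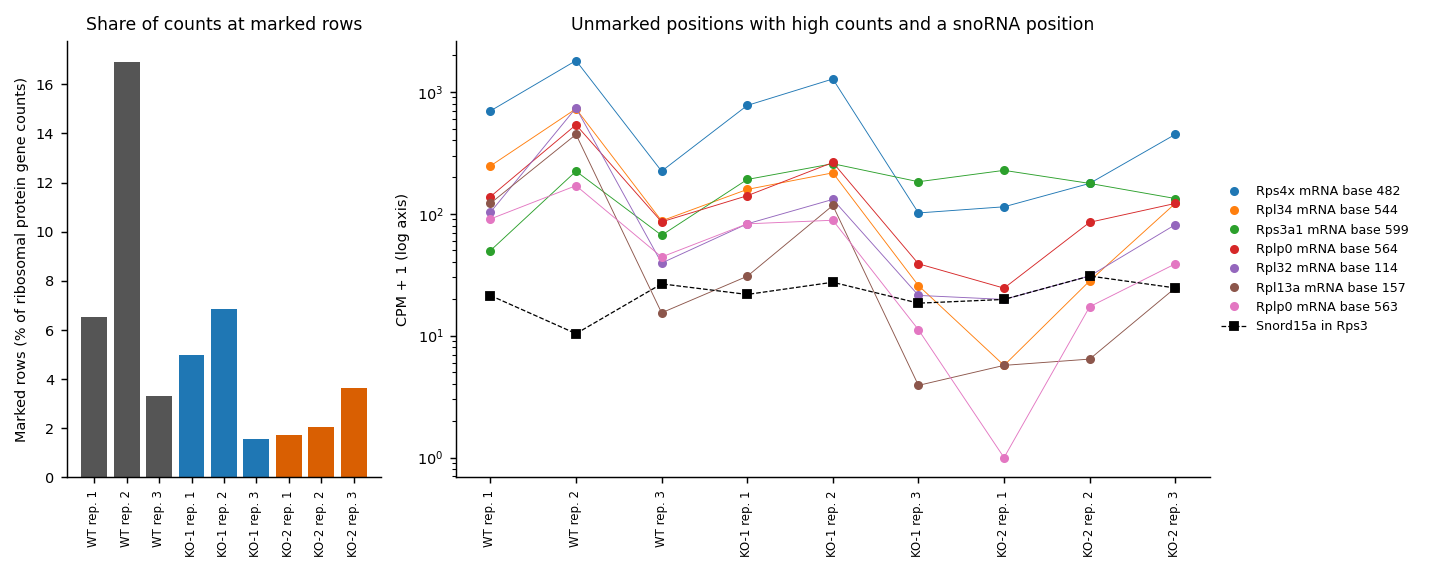
Left, share of ribosomal protein counts at marked positions in each library. Right, CPM + 1 (log axis) of the 7 unmarked positions by library, with lines joining the libraries for the eye only, and of 1 position inside Snord15a (squares). WT replicate 2 has the highest marked share, 16.9%, and the highest value at 6 of the 7 positions, while the Snord15a position stays between 9.39 and 29.8 CPM.

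Of the 83 genes, 30 hold a snoRNA by the annotation, and 862 unmarked counts lay inside 38 of these snoRNAs. The highest was a position in Snord15a, which lies in an intron of Rps3, with 101 counts. Its sequence is shown as a position outside an mRNA exon, with the counted 3′ end at the last lower case base, base 55 of the 148 bases of Snord15a.
Snord15a, chr7:99482868-99482892, minus strand: tgtctttgtccaagaTGCCTCACTA
It had 20.4, 9.39 and 25.6 CPM in WT, 20.8, 26.4 and 17.5 in Snord67KO-1, and 18.8, 29.8 and 23.6 in Snord67KO-2. The 3 groups overlapped, and here WT replicate 2 was the lowest library.

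The gene totals were then compared between genotypes, to see which ribosomal protein genes differ in cells that lack Snord67. For the average of both clones against WT, 7 of 75 genes were higher and 3 were lower (edgeR quasi-likelihood test, TMM, Benjamini-Hochberg adjusted p under 0.05 over 4535 genes). Over all genes tested, 8.38% were higher and 6.11% were lower. The median log2 fold change was 0.09 over the 75 genes and -0.03 over all genes tested. The higher genes were Rps2, Rps3a1 and Rps28 of the small subunit and Rpl37a, Rpl31, Rpl10 and Rpl41 of the large subunit. The lower genes were Rpl5 and Rpl13a of the large subunit and the paralog Rpl22l1. Without TMM, on the scale of library totals, the split was 10 higher and 1 lower, against 470 higher and 152 lower of all 4535 genes. Leaving out 1 library moved the 10 calls to 4 (WT replicate 1 or Snord67KO-2 replicate 3), 5 (Snord67KO-1 replicate 3) or 6 (WT replicate 2 or Snord67KO-2 replicate 2). They rose to 12 without WT replicate 3. Over all 4535 genes, 380 were higher and 277 lower with all libraries. In the order named, these were 266 and 200, 277 and 198, 317 and 232, 294 and 229, 288 and 200, and 295 and 296. No called gene changed the sign of its fold change in any alternative that was run.

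Rpl37a, a zinc-binding protein of the large subunit (ENSMUSG00000046330.10, chromosome 1, 72711290 to 72713813, plus strand), had 55.6, 59.5 and 48.0 CPM in WT, 134, 157 and 176 in Snord67KO-1, and 94.1, 117 and 116 in Snord67KO-2. All 6 knockout libraries lay above all 3 WT libraries. The log2 fold change was 1.15 ± 0.18 (SE) for the average of both clones (edgeR adjusted p = 3.1e-05), 1.27 ± 0.19 in Snord67KO-1 (edgeR adjusted p = 1.7e-05) and 1.03 ± 0.21 in Snord67KO-2 (edgeR adjusted p = 0.0019). Its counts were spread over the mRNA, with 71.7% in coding sequence, 23.2% in the 3′ UTR and 3.34% at the highest position. With marked positions included, which add 152 counts to its 509, the adjusted p in Snord67KO-2 was 0.056.

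Rpl22l1, the paralog of the large subunit protein Rpl22 (ENSMUSG00000039221.10, chromosome 3, 28805436 to 28807424, plus strand), had 81.4, 79.8 and 76.8 CPM in WT, 38.6, 34.6 and 53.9 in Snord67KO-1, and 42.4, 27.1 and 33.1 in Snord67KO-2. All 6 knockout libraries lay below all 3 WT libraries. The log2 fold change was -1.20 ± 0.21 (SE) for the average (edgeR adjusted p = 1.8e-04), -1.14 ± 0.23 in Snord67KO-1 (edgeR adjusted p = 6.2e-04) and -1.25 ± 0.28 in Snord67KO-2 (edgeR adjusted p = 0.0047). Rpl22 itself had 145 ± 32.7 CPM (SD, n = 3) in WT, while Snord67KO-1 had 212 ± 36.1 and Snord67KO-2 had 156 ± 6.33, and its log2 fold change for the average was 0.21 ± 0.16 (SE; edgeR adjusted p = 0.41).

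**Figure D4:**
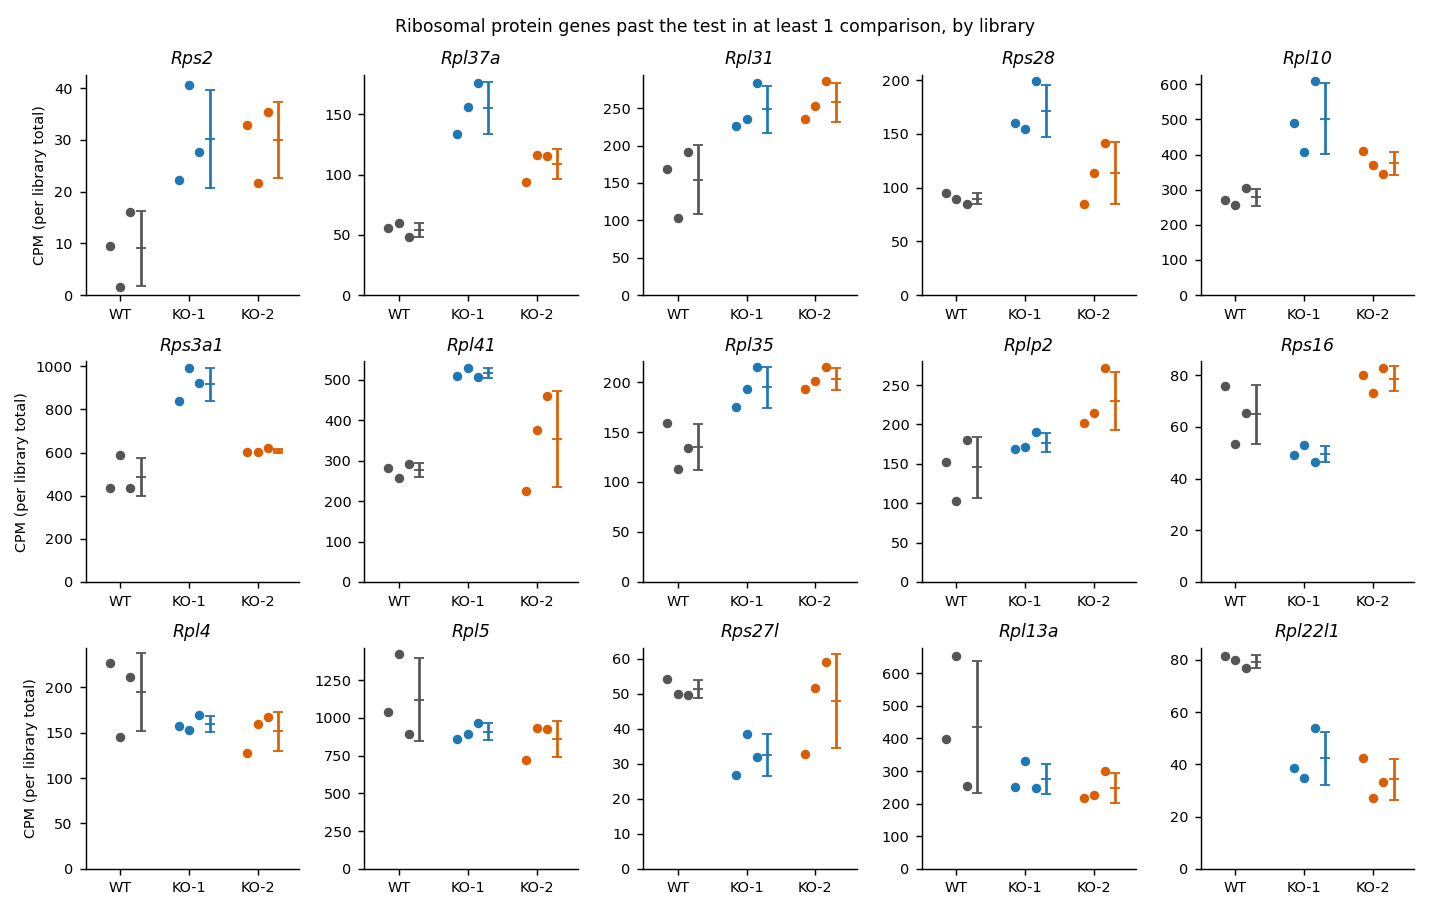
CPM per library total (points) of the 15 ribosomal protein genes called in at least 1 comparison, with mean and SD over 3 libraries beside them, ordered by the log2 fold change of the average of both clones. Rpl37a is above WT in all 6 knockout libraries and Rpl22l1 is below WT in all 6.

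Of the small subunit genes, Rps3a1 had 435, 587 and 437 CPM in WT, 837, 990 and 922 in Snord67KO-1, and 602, 602 and 619 in Snord67KO-2. The groups did not overlap, with Snord67KO-2 between the others. Its log2 fold change was 0.52 ± 0.14 (SE) for the average (edgeR adjusted p = 0.011) and 0.68 ± 0.16 in Snord67KO-1 (edgeR adjusted p = 0.0021), and in Snord67KO-2 it was 0.36 ± 0.16 (edgeR adjusted p = 0.21). Rps28 had 94.95, 89.2 and 84.8 CPM in WT, 160, 155 and 199 in Snord67KO-1, and 84.7, 114 and 142 in Snord67KO-2, so that 1 Snord67KO-2 library reached down to the WT level. Rps2 was low everywhere, with 102 counts in all. It had 9.50, 1.57 and 16.0 CPM in WT, 22.3, 40.7 and 27.7 in Snord67KO-1, and 32.9, 21.7 and 35.4 in Snord67KO-2, and its log2 fold change of 1.57 ± 0.44 (SE) for the average (edgeR adjusted p = 0.016) rests on the fewest counts of the 10 called genes.

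Of the large subunit genes, Rpl10, which joins the subunit late in its assembly, had 271, 257 and 306 CPM in WT, 491, 407 and 610.1 in Snord67KO-1, and 409, 372 and 345 in Snord67KO-2. Rpl41, whose coding sequence of 75 bases is among the shortest known, had 281, 258 and 291 CPM in WT, 511, 531 and 508 in Snord67KO-1, and 226, 377 and 461 in Snord67KO-2. Of its counts, 67.0% lay in the 3′ UTR. Both were higher for the average, with log2 fold changes of 0.52 ± 0.15 (SE) for Rpl10 (edgeR adjusted p = 0.016) and 0.51 ± 0.15 for Rpl41 (edgeR adjusted p = 0.018). Rpl10 was separated from WT in every library on this scale, while Rpl41 was not, with Snord67KO-2 replicate 1 below WT. Rpl31, which lies near the exit of the peptide tunnel, had 168, 103 and 192 CPM in WT, 226, 236 and 284 in Snord67KO-1, and 235, 252 and 286 in Snord67KO-2. The copy Rpl31-ps12, which is outside the rule, had mean values of 84.4, 142 and 140 CPM in WT, Snord67KO-1 and Snord67KO-2, and its log2 fold change for the average was 0.61 ± 0.19 (SE; edgeR adjusted p = 0.032). Reads shared between Rpl31 and this copy cannot be assigned here. Of the other called genes, Rpl13a overlaps Gm45713 on its own strand, and its counts cannot be split between them.

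The lower large subunit genes were less even. Rpl5, which carries the smallest rRNA into the large subunit, had 1042, 1426 and 893 CPM in WT, 858, 895 and 968 in Snord67KO-1, and 720, 933 and 924 in Snord67KO-2. The groups overlapped on this scale, and its log2 fold change for the average was -0.44 ± 0.14 (SE; edgeR adjusted p = 0.030). Rpl13a had 399, 654 and 254 CPM in WT, 251, 329 and 249 in Snord67KO-1, and 217, 228 and 300 in Snord67KO-2, and its log2 fold change was -0.82 ± 0.23 (SE; edgeR adjusted p = 0.036). Without its highest position, which had 446 CPM in WT replicate 2, Rpl13a had 278, 208 and 240 CPM in WT, 221, 213 and 246 in Snord67KO-1, and 212, 222 and 276 in Snord67KO-2. The log2 fold change was then -0.22 ± 0.12 (SE; edgeR adjusted p = 0.18) for the average and -0.38 ± 0.13 (edgeR adjusted p = 0.024) in Snord67KO-1.

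Rps4x went the other way. With all unmarked positions it had 1131, 2180 and 599.9 CPM in WT, 1386, 1988 and 925 in Snord67KO-1, and 777, 773 and 1101 in Snord67KO-2, with a log2 fold change for the average of -0.28 ± 0.42 (SE; edgeR adjusted p = 0.73). Without its highest position it had 435, 379 and 378 CPM in WT, 615, 716 and 824 in Snord67KO-1, and 664, 597 and 654 in Snord67KO-2. All 6 knockout libraries then lay above WT. The log2 fold change was 0.61 ± 0.12 (SE) for the average (edgeR adjusted p = 2.4e-04), 0.57 ± 0.14 in Snord67KO-1 (edgeR adjusted p = 0.0014) and 0.65 ± 0.15 in Snord67KO-2 (edgeR adjusted p = 0.0017). The value was close to this, 0.62 ± 0.13 (SE; edgeR adjusted p = 8.5e-04), when positions followed by at least 4 of the 6 bases were left out, an alternative chosen after the data were seen. In Rpl34 the log2 fold change went from -0.90 ± 0.38 (SE) to -0.08 ± 0.12 without its highest position, with neither past the test (edgeR adjusted p = 0.18 and 0.69).

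In Snord67KO-1 alone, 6 of the 75 genes were higher and 6 were lower than in WT, against 12.4% higher and 9.44% lower over all genes tested. The median log2 fold change was 0.03 over these genes and -0.02 over all genes tested. The higher genes were Rpl37a, Rps3a1, Rpl41, Rps28, Rpl10 and Rps2, and the lower genes were Rpl22l1, Rps27l, Rpl5, Rpl4, Rps16 and Rpl13a. Without TMM, on library totals, the median of all genes moved to 0.23 and the split among the 75 genes was 25 higher and 1 lower. Over all 4535 genes, 882 were then higher and 186 lower. The scaling factors of the Snord67KO-1 libraries were 1.03 to 1.19 against 0.87 to 1.01 in WT. The 12 calls became 24 without the highest position of each gene, with 13 higher and 11 lower, against 697 higher and 525 lower of 4257 genes. They became 7 without Snord67KO-1 replicate 3, with 4 higher and 3 lower, against 460 higher and 292 lower of 4535 genes. Rps27l, a paralog of Rps27, had 54.3, 50.1 and 49.6 CPM in WT and 26.7, 38.6 and 32.0 in Snord67KO-1, and the groups did not overlap. Its log2 fold change was -0.93 ± 0.26 (SE; edgeR adjusted p = 0.011) in Snord67KO-1 and -0.04 ± 0.28 (edgeR adjusted p = 0.98) in Snord67KO-2, where it had 32.9, 51.5 and 59.1 CPM. Rpl4, which lines the peptide tunnel, had 227, 146 and 211 CPM in WT and 157, 152 and 169 in Snord67KO-1, and these overlapped. Its log2 fold change was -0.54 ± 0.18 (SE; edgeR adjusted p = 0.029).

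In Snord67KO-2 alone, 5 of the 75 genes were higher and 1 was lower, against 4.67% higher and 1.72% lower over all genes tested. The median log2 fold change was 0.11 over these genes and -0.02 over all genes tested, and 52 of the 75 were above 0. The higher genes were Rpl37a, Rpl31, Rplp2, Rpl35 and Rps2, and the lower gene was Rpl22l1. Rpl31 had a log2 fold change of 0.75 ± 0.21 (SE; edgeR adjusted p = 0.030) in Snord67KO-2 and 0.42 ± 0.20 (edgeR adjusted p = 0.14) in Snord67KO-1. Rpl35, also near the tunnel exit, had 159, 113 and 134 CPM in WT, 175, 193 and 216 in Snord67KO-1, and 193, 201 and 215 in Snord67KO-2. Its log2 fold change was 0.61 ± 0.18 (SE; edgeR adjusted p = 0.041) in Snord67KO-2 and 0.27 ± 0.17 (edgeR adjusted p = 0.28) in Snord67KO-1. The Snord67KO-2 call of Rpl35 was kept in 6 of 20 alternatives, and its largest adjusted p, by edgeR with no filter on low counts, was 0.29. The 6 calls fell to 0 when marked positions were included, against 158 higher and 43 lower of 5086 genes. Of the 75 genes, 19 were then at an unadjusted p under 0.05 by edgeR, a count that was not made over all genes. The 6 calls fell to 1 without Snord67KO-2 replicate 2 or replicate 3, and to 2 without WT replicate 1, WT replicate 2 or Snord67KO-2 replicate 1. They fell to 3 without Snord67KO-1 replicate 2 or replicate 3. Over all 4535 genes, 212 were higher and 78 lower with all libraries. In the order named, these were 109 and 17, 105 and 22, 134 and 43, 169 and 57, and 130 and 30. For the last pair of libraries they were 171 and 70, and 168 and 56.

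**Figure D5:**
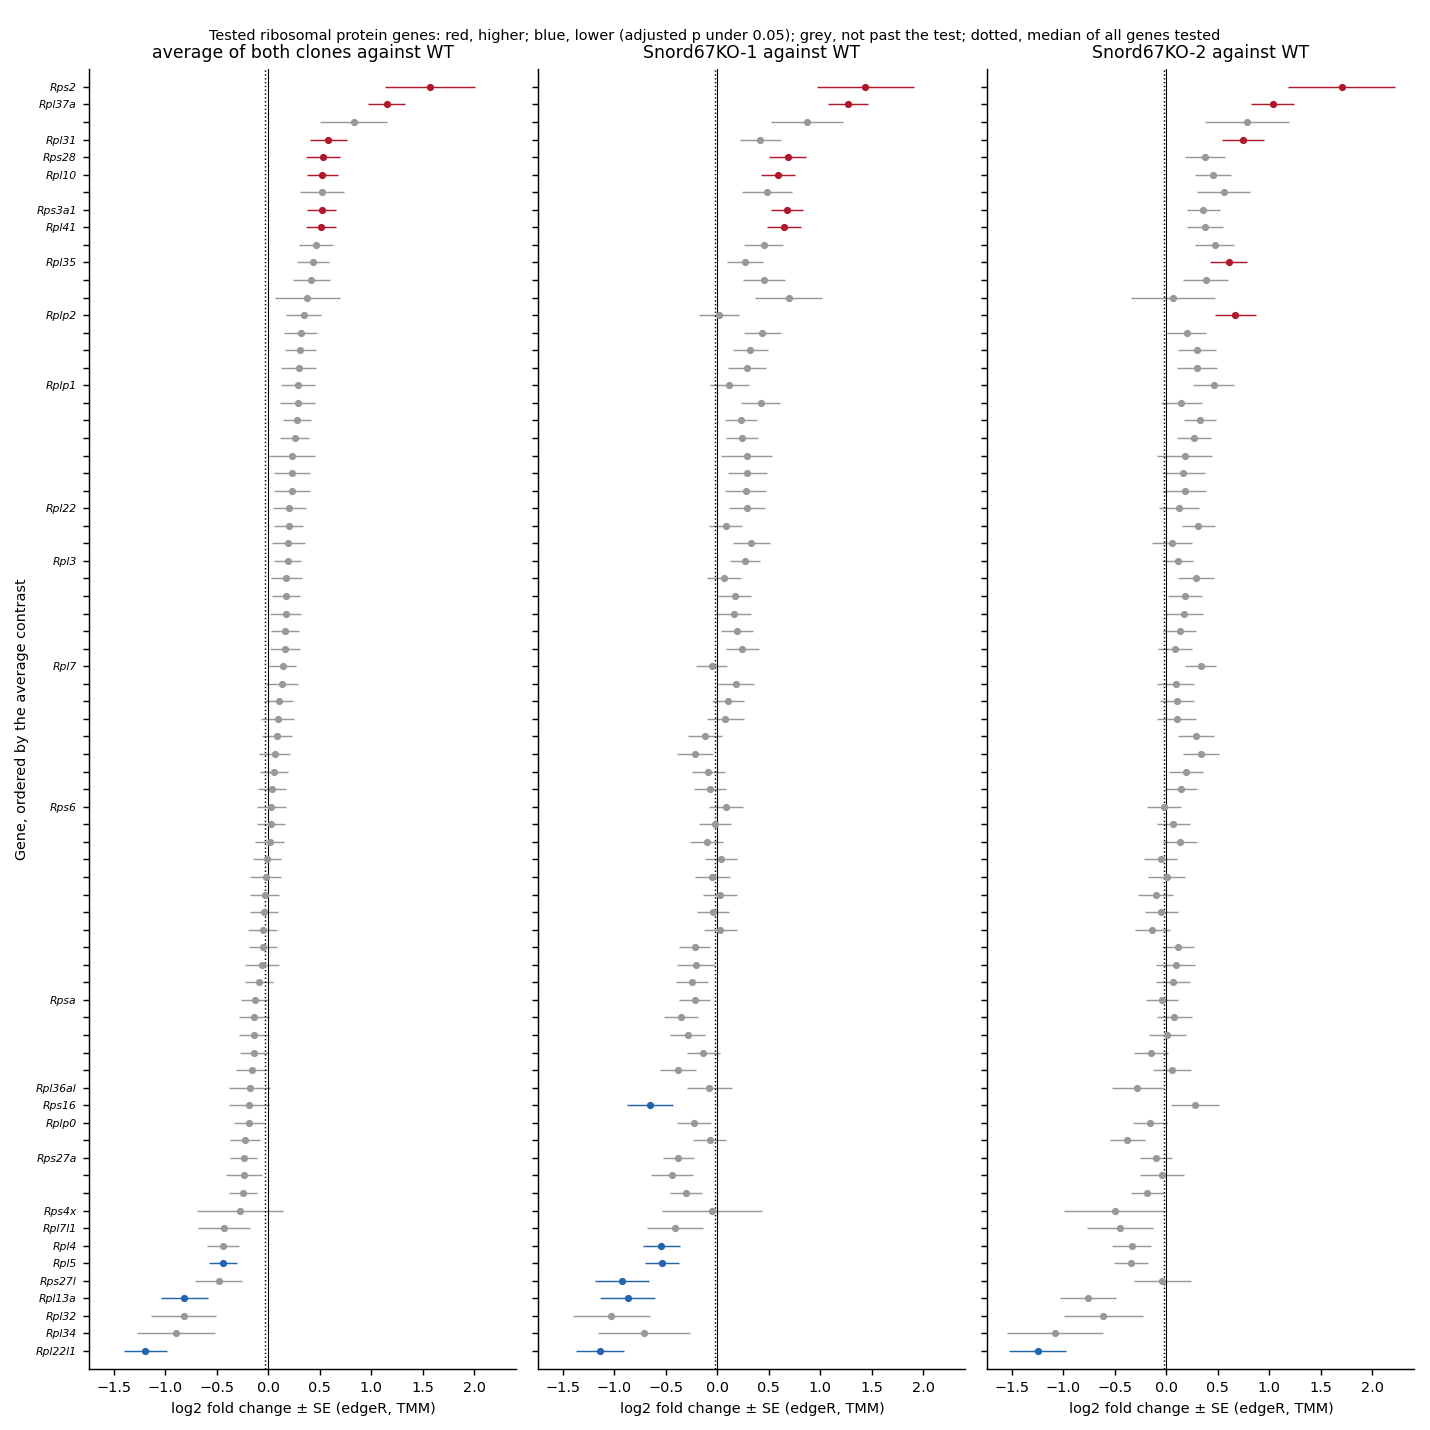
Log2 fold change ± SE of 73 tested genes against WT for the clones averaged and for each clone, all in the order of the first panel, with names for genes described in the text. The dotted line is the median of all genes tested, -0.03, -0.02 and -0.02. Rps2 and Rpl37a are at the top and Rpl22l1 at the bottom, and Rps4x, Rpl34 and Rpl32 have wide errors.

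The clones were also compared with each other. Rps16 and Rplp2 were higher in Snord67KO-2 than in Snord67KO-1, and 0 genes were lower by edgeR, against 3.75% higher and 3.64% lower over all genes tested. At an unadjusted p under 0.05 by edgeR, 10 genes were higher and 0 lower, a count that was not made over all genes. DESeq2 called 0, against 64 higher and 67 lower over all 4535 genes. Of the genes that did not pass, Rps3 was at 0.55 ± 0.18 (SE; edgeR adjusted p = 0.053) and Rps27l at 0.89 ± 0.30 (edgeR adjusted p = 0.063). Rps16, a small subunit gene, had 48.98, 52.9 and 46.6 CPM in Snord67KO-1, 80.0, 73.2 and 82.7 in Snord67KO-2, and 76.0, 53.2 and 65.6 in WT. Its log2 difference between the clones was 0.93 ± 0.25 (SE; edgeR adjusted p = 0.017). On library totals without TMM, the median of all genes moved to -0.26, and the log2 difference of Rps16 was 0.67 (edgeR adjusted p = 0.10). The split there was 0 higher and 1 lower of the 75 genes, and 62 higher and 323 lower over all 4535 genes. The 2 calls became 5 without WT replicate 2, 1 without WT replicate 1, and 0 without Snord67KO-1 replicate 1 or 3 or any of the Snord67KO-2 libraries. Over all 4535 genes, 170 were higher and 165 lower with all libraries. In the order named, these were 247 and 231, 156 and 146, 96 and 77, and 129 and 164. Without Snord67KO-2 replicate 1, 2 or 3 they were 92 and 86, 80 and 49, and 103 and 92.

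The P-stalk is the flexible arm of the large subunit that contacts translation factors. Rplp0, its base, had 1274 ± 183 CPM (SD, n = 3) in WT, while Snord67KO-1 had 1280 ± 123 and Snord67KO-2 had 1119 ± 194. Rplp1 had 366 ± 109, 474 ± 55.8 and 498 ± 60.6 CPM in the same order. Neither passed the edgeR test in any of the 4 comparisons. Rplp2 had 152, 103 and 181 CPM in WT, 169, 171 and 191 in Snord67KO-1, and 202, 214 and 272 in Snord67KO-2, and the Snord67KO-2 libraries lay above all others. Its log2 fold change was 0.67 ± 0.20 (SE; edgeR adjusted p = 0.040) in Snord67KO-2 against WT, 0.02 ± 0.19 (edgeR adjusted p = 0.96) in Snord67KO-1 against WT, and 0.65 ± 0.20 (edgeR adjusted p = 0.041) between the clones. Rpsa, the small subunit protein also known as a laminin receptor precursor, had 572 ± 82.0, 585 ± 44.4 and 547 ± 52.2 CPM, and its log2 fold change for the average was -0.13 ± 0.13 (SE; edgeR adjusted p = 0.55).

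By subunit, 3 of 28 small subunit genes were higher and 0 lower for the average of both clones by edgeR, with a median log2 fold change of 0.05. At an unadjusted p under 0.05 by edgeR, 4 were higher and 0 lower, a count that was not made over all genes. DESeq2 called 1 higher and 0 lower, against 182 higher and 120 lower over all 4535 genes. Of 40 large subunit genes without the P-stalk and the paralogs, 4 were higher and 2 lower, with a median of 0.17. All 4 tested paralogs had a log2 fold change below 0 in each comparison with WT under TMM, while on library totals Rpl36al was at 0.17 in Snord67KO-1. They had a median of -0.46 for the average, and Rpl22l1 alone was called there. Rpl36al was at -0.18 ± 0.20 (SE; edgeR adjusted p = 0.59) and Rpl7l1 at -0.43 ± 0.25 (SE; edgeR adjusted p = 0.26). The 28 tested genes with a snoRNA inside had 3 higher and 2 lower and a median of 0.19, and the 47 without one had 4 higher and 1 lower and a median of 0.05. Over all genes tested, 8.38% were higher and 6.11% lower, with a median of -0.03. The differences between these groups of genes were not tested.

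The start of the mRNAs was looked up in RefSeq promoters (GRCm38.p6), which hold 65 of the 83 genes with 77 starts. A C at the start followed by 4 bases that are each C or T was present at 14 of the 77 starts (18.2%) and at 2.51% of the 32851 starts of all genes. In a window from 5 bases before to 10 bases after the start, the same run was present at 41.6% of the ribosomal protein starts and 18.4% of all starts. The sequences below have 8 bases before the start, and the run of C and T from the start is in capitals. Rplp2 and Rpl35, which were higher in Snord67KO-2, hold the run, and Rpl37a and Rpl22l1 are shown because they changed in both clones. Neither Rpl37a nor Rpl22l1 holds the run at the start, while Rpl22l1 holds it within the wider window and Rpl37a does not.
Rplp2, chr7:141447643-141447662, plus strand: gcgtcttcCTTTCgccgccg
Rpl35, chr2:39005120-39005139, minus strand: gccctttcCTCTTTCTCTCg
Rpl37a, chr1:72711252-72711271, plus strand: cgccggtcTaaaaccgcgca
Rpl22l1, chr3:28805500-28805519, plus strand: gcaagcccgttctcttccca
Of 10 tested genes with the run at the start, 0 were called by edgeR or DESeq2 for the average of both clones, with 1 at an unadjusted p under 0.05. Of 47 without it, 7 were higher and 3 lower by edgeR, against 8.38% and 6.11% over all genes tested. For the average, the medians were 0.04 and 0.04. In Snord67KO-2 against WT, 2 of the 10 were higher and 0 lower by edgeR, and 3 of the 47 were higher and 1 lower. Over all genes tested, 4.67% were higher and 1.72% lower there. The difference between the 2 sets was not tested. An absent match says only that these letters are not at the annotated start.

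Of the 77 mitochondrial ribosomal protein genes, 13 were tested and 0 were called by edgeR in any of the 4 comparisons, with a median of -0.14 for the average. There, 0 were at an unadjusted p under 0.05 and DESeq2 called 0. Of the list of 30 genes for assembly and export of ribosomal subunits, 19 were tested, 0 were higher and 5 were lower for the average, against 6.11% over all genes tested. Their median log2 fold change was -0.54, and DESeq2 called 0 higher and 1 lower, against 182 higher and 120 lower over all 4535 genes. At an unadjusted p under 0.05 by edgeR, 0 were higher and 10 lower, a count that was not made over all genes. The lower genes were Gtpbp4, Riok2, Wdr12, Rrs1 and Brix1, and Gtpbp4, a GTPase of large subunit assembly, had mean values of 61.5, 30.6 and 21.7 CPM and a log2 fold change of -1.39 ± 0.25 (SE; edgeR adjusted p = 2.9e-04).

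Of the 20 genes listed for control of ribosomal protein mRNAs, 14 were tested, and for the average 1 was higher and 2 were lower, against 8.38% higher and 6.11% lower over all genes tested, with a median of -0.04. DESeq2 called 0 higher and 2 lower, against 182 higher and 120 lower over all 4535 genes. By edgeR, Rps6ka1, a kinase that acts on Rps6, was higher, while Cnbp, a protein that binds TOP mRNAs, and Myc, a transcription factor known to raise ribosome production, were lower. Myc had mean values of 145, 38.9 and 71.4 CPM in WT, Snord67KO-1 and Snord67KO-2, with log2 fold changes of -2.15 ± 0.22 (SE; edgeR adjusted p = 2.9e-08) in Snord67KO-1 and -0.97 ± 0.22 (edgeR adjusted p = 0.0069) in Snord67KO-2. Larp1, which binds the TOP motif, was at 0.15 ± 0.21 (SE; edgeR adjusted p = 0.67) for the average.

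Single positions were tested against the rest of their gene, because a gene total mixes all positions of the gene. Marked and unmarked positions were tested together. Of 2051 positions tested in the table, 42 lay in ribosomal protein genes. By edgeR, 0 of these 42 were called for the clones averaged or for either clone, with 0% called over the whole table in each. At an unadjusted p under 0.05 there were 18, 1 and 19 of the 42 positions (42.9%, 2.38% and 45.2%), against 16.6%, 5.17% and 16.3% of all positions tested. For the average and for Snord67KO-2 these counts fell to 1 and 1 of 31 without WT replicate 2, to 4 and 2 of 42 without Snord67KO-2 replicate 1 and to 3 and 2 of 42 without Snord67KO-2 replicate 2. They were 7 and 8 of 37 without Snord67KO-1 replicate 1, 9 and 11 of 32 without WT replicate 1, and 9 and 7 of 42 with a replicate block. With unmarked positions only, they were 9 and 11 of 23 (39.1% and 47.8%), against 15.8% and 15.5% of the 1679 positions tested. Over all 42 positions, the smallest edgeR adjusted p for the average was 0.28. The spread between replicates, as a biological coefficient of variation, was 0.52 for positions and 0.18 for gene totals. The 5 positions with the smallest p were in Rplp0, Rpl23a, Rpl23, Rpl13a and Rpl8. The position in the 5′ UTR of Rplp0, at mRNA base 109, had 13.6, 6.26 and 11.2 CPM in WT, 17.8, 28.5 and 27.7 in Snord67KO-1, and 23.5, 27.1 and 18.9 in Snord67KO-2. All 6 knockout libraries lay above WT, while the 2 clones overlapped. Against the other counts of Rplp0, the log2 fold change was 1.31 ± 0.45 (SE; edgeR adjusted p = 0.28). Its sequence, in the same form as above, is shown because it was the one position of the 5 that was higher in the clones. The letters GCAC described above occur in its next 10 bases.
Rplp0 at mRNA base 109, chr5:115559808-115559832, plus strand: cgtggcaatccctgaCGCACCGCCG
The other 4 had log2 fold changes from -1.84 to -3.00, and at each of them WT replicate 2 was the highest library. The position in Rpl8 is marked as mispriming, and GCAC occurs in its next 10 bases too.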

How the data were processed

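The deposited table gives counts of RibOxi-seq 3′ ends per position for the 9 oxidized libraries, with a gene name and a mispriming mark for each position. Per the methods and processing notes, the authors trimmed reads with cutadapt and aligned them with STAR. The methods name m39 and the notes mm10, and the positions match GRCm38. What defines the mark, and how duplicates and multi-mapped reads were treated, is not given in the sources used here.

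Counts at unmarked positions were summed per gene. Genes with at least 90 counts over the libraries were fitted with edgeR 4.0.16 (TMM, quasi-likelihood test, R 4.3.3), all 3 genotypes in one fit, with Benjamini-Hochberg adjustment over 4535 genes and a threshold of 0.05. On simulated data for the average contrast (4535 genes, 200 changed), 5% of genes changed 1.5-fold, 56% of those changed 2-fold and 96% of those changed 4-fold were recovered. Marked and unmarked positions that reached 10 counts in 3 or more libraries were tested with the log of the gene's other counts as offset. Alternatives were DESeq2 1.42.0, other scalings, filters and position sets, a replicate block and leaving out each library. Genes named were the 10 highest by CPM, the P-stalk genes and Rpsa, the paralogs, every called gene and, per comparison, the 8 smallest p, and genes at 0. Positions named were the 8 highest and the 5 smallest p. Some items that these rules choose are not reported here. Rps4x, Rpl34, Rpl32 and Rpl13a without their highest position, the Snord15a position, Rpl22 and the listed genes with their values were added after values were seen. The ribosomal protein genes and all lists were chosen with earlier results of these data known.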

Additional observations from a re-analysis of the deposited data

Results flagged for a closer look

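The clones differed from each other in 2 ribosomal protein genes by a test of the difference itself. Rps16 was higher in Snord67KO-2 than in Snord67KO-1 by 0.9343 on the log2 scale (edgeR adjusted p = 0.017), with 3 of 3 Snord67KO-2 libraries above all Snord67KO-1 libraries. Rplp2 was higher by 0.65 on the log2 scale (edgeR adjusted p = 0.041), also with 3 of 3 libraries above. DESeq2 called neither, and without TMM, on library totals, the adjusted p was 0.10 for Rps16 and 0.25 for Rplp2.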

How the results depend on the processing

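The calls of Rpl37a were kept in 20 of 20 alternatives for the average and in Snord67KO-1, and in 19 of 20 in Snord67KO-2, where the adjusted p was 0.056 with marked positions included. Other calls were kept in fewer alternatives, with Rpl35 in Snord67KO-2 in 6 of 20, Rplp2 in Snord67KO-2 and between the clones in 7 of 20 each, Rps2 in Snord67KO-2 in 7 of 18, and Rpl13a and Rpl5 for the average in 8 and 9 of 20. Over all called genes, 410 of 595 alternatives kept the call, 185 lost it and none changed its direction. The cause of the changes below was not tested.

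DESeq2 called 4 ribosomal protein genes for the average (edgeR 10), 6 in Snord67KO-1 (edgeR 12), 2 in Snord67KO-2 (edgeR 6) and 0 between the clones (edgeR 2). Over all 4535 genes, it called 182 higher and 120 lower for the average, and 308 and 204 in Snord67KO-1. It called 94 and 18 of them in Snord67KO-2, and 64 and 67 between the clones. In Snord67KO-1 there were 26 calls on library totals, 22 on totals without Rn45s and marked positions, and 24 without the highest position of each gene. Over all genes tested, 882 were higher and 186 lower, 742 and 211, and 697 and 525 in the same order. In Snord67KO-2 there were 0 calls with marked positions included, against 158 higher and 43 lower of 5086 genes. Between the clones there was 1 lower call on library totals (over all genes 62 higher and 323 lower) or within annotated exons (103 and 68). There was 1 higher call with a minimum of 270 counts (67 and 59) or with marked positions included (110 and 128). There were 0 calls on totals without Rn45s and marked positions (70 and 231). Without the highest positions, 6 were higher and 1 lower (236 and 271 of 4257 genes). With each position counted at most once per library, 12 were higher and 0 lower (277 and 291 of 4285). The Snord67KO-2 libraries held 212463 to 423278 counts against 491836 to 686776 in Snord67KO-1, and the part of this in the capped counts was not tested. Without positions followed by at least 4 of the 6 bases, an alternative chosen after seeing the data, 4 were higher and 0 lower (182 and 202 of 4317). The summed log2 difference was -0.14 in Snord67KO-1 with each position counted at most once, and in Snord67KO-2 it was 0.13 without the highest positions and 0.17 with each position counted at most once.

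Leaving out 1 library gave 4 to 12 calls for the average, 7 to 15 in Snord67KO-1, 1 to 6 in Snord67KO-2, 0 to 5 between the clones and 0 to 0 positions. Over all 4535 genes, 266 to 330 were higher and 198 to 296 lower for the average, and 421 to 549 and 285 to 422 in Snord67KO-1. In Snord67KO-2 there were 105 to 199 and 17 to 101, and between the clones 80 to 247 and 49 to 231. The summed log2 difference ran from 0.083 to 0.25 in Snord67KO-1 and from -0.17 to 0.028 in Snord67KO-2. With a replicate block there were 11, 13, 6 and 2 calls. Over all 4535 genes, 407 were then higher and 324 lower, 602 and 463, 207 and 99, and 186 and 186. Same-numbered libraries had correlations of their deviations from -0.14 to 0.26, with 2 of 9 pairs above 0.1. These were WT with Snord67KO-1, at 0.26 for replicate 2 and 0.215 for replicate 3. WT replicate 2 with Snord67KO-1 replicate 3 was at -0.29, and WT replicate 3 with Snord67KO-1 replicate 2 at -0.24. The highest pair of different number was at 0.15. Numbers were thus not shared in the same way across all genotypes. The main fit did not pair the libraries, and the replicate block was run as an alternative. How the replicates were made is not given in the sources used here.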
